A study of Mus musculus with 3 samples.

Results

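Vascular smooth muscle cells (VSMC) are the contractile cells of the walls of the portal vein, hepatic artery and larger hepatic veins. They were picked out of mouse liver single-cell RNA sequencing by a rule on counts of unique molecular identifiers (UMIs, 1 for each captured RNA molecule). A cell barcode was taken when at most 30% of its UMIs were mitochondrial, it had at least 1 UMI of Myh11, it had at least 4 UMIs in Acta2, Myh11, Tagln, Cnn1, Myl9 and Rgs5 together, and it had 0 UMIs of the leukocyte genes Ptprc, Cd3e and Cd79a. Of 36990 barcodes, 74 met the rule, 49 in the control library (CON), 8 in the high-fat diet library (HFD) and 17 in the carbon tetrachloride library (CCL4). The study made 1 library per condition from dissociated liver of male C57BL/6J mice that were 8 weeks old at the start, with no genetic change given, and each library pooled the cells of 2 mice. CON mice were untreated, HFD mice ate a diet with 60% of its energy as fat for 4 months, as a model of steatohepatitis, and CCL4 mice ate chow for 3 months and then, over 4 weeks, received 2 weekly injections into the peritoneum of 0.1 mL of a 10% solution of the liver toxin CCl4, as a model of fibrosis. Livers were digested by collagenase perfusion, nonparenchymal cells were enriched on a density gradient, and these were mixed with hepatocytes in equal numbers, so the share of any cell type reflected the preparation as well as the tissue. The comparison class was collagen-positive fibroblasts, 126 barcodes with at least 4 UMIs in Col1a1, Col1a2, Col3a1 and Dcn together and none of Myh11, Ptprc, Cd3e or Cd79a (27 in CON, 85 in HFD and 14 in CCL4).

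Smooth muscle contracts when calcium entering from outside or released from the sarcoplasmic reticulum activates myosin light chain kinase, which lets smooth muscle myosin pull on filaments of smooth muscle actin. The contractile genes are held under the transcription factor SRF and its partner myocardin, which act through a short DNA element named the CArG box. Pericytes, the mural cells of small vessels, hepatic stellate cells and portal fibroblasts share part of this programme, and smooth muscle cells are known to lose it and to make matrix when vessels are injured.

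The CArG box is shown here because SRF, under which the contractile genes are held, acts through it. In the RefSeq promoters of the mouse genome (GRCm38.p6, from 250 bases before to 50 bases after each gene's start), 1.81% of 27025 genes had a CArG box, searched in its strict form of 2 C, then 6 bases that are each A or T, then 2 G, which reads the same on both strands. Among genes higher in VSMC than in fibroblasts by the test given later, 5.88% of the 187 with a promoter entry had a box, against 2.42% of the 1982 tested genes with an entry and 0.513% of the 195 lower genes. Of the contractile list, 12.0% of 25 genes with an entry had a box. A match is a description of the letters and not a site of binding. The following 30-base stretches, 5′ to 3′ on the strand of the gene with the box in capitals, belong to a rule gene (Myl9, regulatory light chain of smooth muscle myosin), 3 genes of the contractile list (Myl6, the essential light chain, Vcl, the adhesion protein vinculin, and Filip1l) and a gene among the most different from fibroblasts (Myom1, a cross-linker of thick filaments).
Myl9 (chr2:156775293-156775322, plus strand): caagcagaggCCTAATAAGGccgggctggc
Myl6 (chr10:128493040-128493069, minus strand): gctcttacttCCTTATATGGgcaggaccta
Vcl (chr14:20929161-20929190, plus strand): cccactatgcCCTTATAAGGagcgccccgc
Filip1l (chr16:57549170-57549199, plus strand): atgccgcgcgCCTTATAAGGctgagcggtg
Myom1 (chr17:71019448-71019477, plus strand): gccttcctggCCATAAAAGGctggctgtgg
Counted from the RefSeq start of each gene, the box began 161 bases before that of Myl9 (156775464, inside the GENCODE gene given later), 50 before that of Myl6, 227 before that of Vcl, 62 before that of Filip1l and 99 before that of Myom1. The Vcl and Filip1l boxes were the same 10 bases. Acta2, Cnn1 and Rgs5 had a promoter entry and no strict box in the window, but the Acta2 window held 2 stretches that are 1 letter off it, as 22.5% of all genes hold at least 1. Tagln and Myh11 had no entry.

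The 74 barcodes were few and their depth was uneven, which set how much could be said of each library. VSMC were 0.436% of the 11245 CON barcodes (exact 95% interval 0.323 to 0.576), 0.0616% of 12984 HFD barcodes (0.0266 to 0.121) and 0.133% of 12761 CCL4 barcodes (0.0776 to 0.213). The intervals cover counting error only, and the libraries differed in makeup, with leukocytes 38.6% of CON, 16.5% of HFD and 9.17% of CCL4 barcodes. The CON VSMC summed to 261266 UMIs, the HFD VSMC to 23883 and the CCL4 VSMC to 49058. A CON barcode had 1994 to 20520 UMIs with a median of 4699, an HFD barcode 2156 to 4558 with a median of 2671, and a CCL4 barcode 1705 to 9031 with a median of 2192. A single UMI was therefore worth 3.83 CPM (UMIs per 1000000 of the sum) in the CON sum, 41.9 CPM in the HFD sum and 20.4 CPM in the CCL4 sum. The whole libraries held 49613255, 34985786 and 34061186 UMIs. Mitochondrial UMIs took a median of 2.74% of a CON, 1.51% of an HFD and 1.15% of a CCL4 VSMC barcode. Barcode sequences shared by pairs of libraries numbered 36, 49 and 52, and none of these belonged to VSMC.

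Few barcodes lay near the edges of the rule. The 6 genes summed to 4 and 8 UMIs in the lowest CON members, 18 and 35 in the lowest HFD members and 5 and 16 in the lowest CCL4 members, whereas the medians were 189, 89 and 41. Just outside, 7 CON, 3 HFD and 1 CCL4 barcodes with Myh11 and no leukocyte gene had a sum under 4, at most 2, 3 and 1. A further 9 CON, 2 HFD and 2 CCL4 barcodes passed on muscle genes and had a leukocyte gene, with median sums of 258, 27 and 21.5. Barcodes with a sum of at least 4 and no Myh11 numbered 17 in CON, 12 in HFD and 4 in CCL4. In 12, 9 and 3 of these most of the sum was Rgs5, a gene of pericytes and other mural cells. No doublet caller was run, and a droplet holding a VSMC and another cell was left out only where that cell carried a leukocyte gene of the rule.

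The label was checked against markers. The genes of the rule chose the barcodes, so their levels are given as a description with no test. Acta2, smooth muscle actin (ENSMUSG00000035783, chr19:34241090-34255590, minus strand, GRCm38), gave 0 to 179 UMIs per CON barcode with a median of 66, 8 to 54 in HFD with a median of 40.5, and 4 to 33 in CCL4 with a median of 15. Myh11, the smooth muscle myosin heavy chain (ENSMUSG00000018830, chr16:14194535-14291372, minus strand), gave 1 to 94 with a median of 26, 5 to 18 with a median of 8, and 1 to 11 with a median of 5. The ranges of the 3 libraries overlapped for both genes.

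Summed over the members, Acta2 stood at 12200 CPM in CON, 11800 in HFD and 5300 in CCL4, and Myh11 at 5150, 2930 and 2000 CPM. Acta2 reached 44.2, 11.5 and 0 CPM in the fibroblasts of the same libraries. Tagln, the actin-binding protein transgelin (chr9:45929619-45936058, minus strand), stood at 9630, 8540 and 4850 CPM in VSMC. The annotated genes Pcsk7 and Gm48529 overlap Tagln on the opposite strand. Cnn1, the calponin that slows actomyosin cycling (chr9:22099216-22109630, plus strand), was at 582, 461 and 204 CPM, and Myl9 (chr2:156775420-156781658, plus strand) at 4520, 2600 and 1240 CPM. A UMI of Acta2 was also seen in 2.12%, 0.514% and 0.513% of leukocytes (median depth 2608, 2506 and 2193.5 UMIs), a cell type that lacks the gene, against 48 of 49, 8 of 8 and 17 of 17 VSMC.

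Rgs5, which speeds the shutting off of G-protein signals and marks mural cells (chr1:169655501-169695813, plus strand), was different from the other rule genes. It gave 768 UMIs in CON VSMC, in 22 of 49 barcodes with at most 187 in a barcode, 1 UMI in 1 of 8 HFD barcodes and 4 UMIs in 2 of 17 CCL4 barcodes. The level was 2940 CPM (exact 95% interval 2740 to 3150) in CON, 41.9 CPM (1.06 to 233) in HFD and 81.5 CPM (22.2 to 209) in CCL4. When every barcode was thinned to 1000 UMIs, the chance of seeing Rgs5 was 37.1%, 5.80% and 5.33%. In leukocytes thinned to the same depth it was 0.231%, 0.0815% and 0.0783%.

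**Figure D1:**
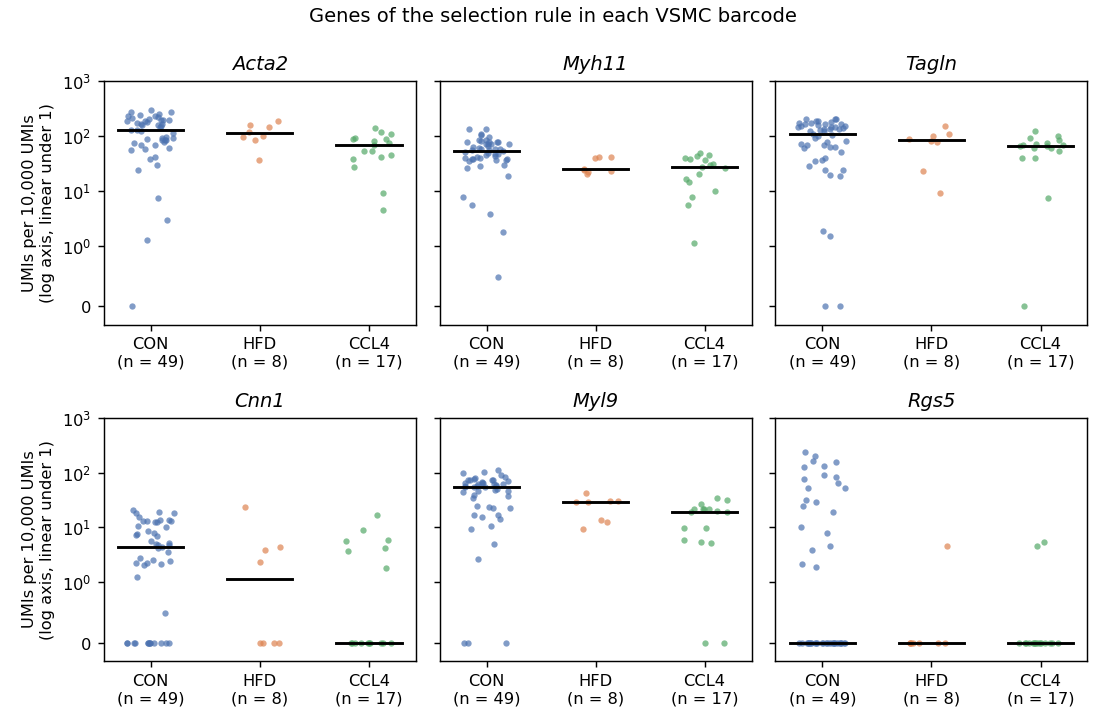
UMIs of each rule gene per 10000 UMIs of a barcode on a log axis that is linear under 1, with a point for every VSMC barcode and a bar at the median of each library (49 CON, 8 HFD and 17 CCL4 barcodes). Acta2, Myh11 and Tagln were seen in nearly all barcodes, whereas Rgs5 was seen in 22 of 49 CON, 1 of 8 HFD and 2 of 17 CCL4 barcodes.

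Markers that the rule did not use also bore on the label. Tpm2, Lmod1, Mylk, Smtn, Des, Myocd and Notch3 had UMIs in the VSMC of all 3 libraries, and their values are given below. The endothelial list of 18 genes summed to 243, 1 and 1 UMIs in CON, HFD and CCL4 VSMC. Of its 4 defining genes Pecam1, Cdh5, Kdr and Stab2, the CON members held 60 UMIs, all in 2 barcodes, and the other libraries held 0. The list of 20 leukocyte genes summed to 34, 2 and 0 UMIs, with Cd74 the most abundant in CON at 12 UMIs. Collagen sums of at least 4 UMIs were found in 12 CON, 1 HFD and 0 CCL4 members, with at most 40, 21 and 2 UMIs in a barcode. The CON barcode with 40 also held 40 of the 60 endothelial UMIs and no Acta2, Tagln or Cnn1. Of its 14 UMIs in the 6 genes, 9 were Rgs5, so its own markers do not bear out the label. Whether it was a mixed droplet was not tested, and it was left out only where stated. The HFD barcode with 21 collagen UMIs had 103 UMIs in the 6 genes.

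RNA of hepatocytes was present throughout and differed between the libraries. A list of 20 hepatocyte genes took 4.28% of VSMC UMIs in CON, 7.55% in HFD and 14.0% in CCL4. The same list took 5.82%, 9.49% and 15.9% of leukocyte UMIs and 19.1%, 15.4% and 22.1% of the UMIs of hepatocyte barcodes. Divided by the last of these, the list stood for an estimated 22.4%, 49.0% and 63.5% of VSMC RNA. Hepatocyte barcodes were those with at least 10 Alb UMIs and none of Myh11 or of the leukocyte, collagen and defining endothelial genes. An HFD VSMC barcode itself held 23 to 56 Alb UMIs and a CCL4 one 37 to 374. How many other cells the hepatocyte class took in was not tested. Any such cells would lower its list share and raise the estimate. Alb, the most abundant of the list in CCL4 VSMC, was at 3970, 13000 and 27800 CPM in VSMC, and in fibroblasts at 4130, 14200 and 32700 CPM. The shares were lowest in CON and highest in CCL4 in VSMC, fibroblasts, endothelial cells and leukocytes alike. Such RNA lowers the level in CPM of all UMIs of a gene that hepatocytes do not make and raises that of a hepatocyte gene such as Alb. Ratios between libraries are therefore given on all UMIs and, apart from the hepatocyte gene Proc and the hemoglobins, also on the UMIs outside this estimate. The second scale shrinks the total and leaves the counts of each gene as they were. It can therefore overstate the HFD and CCL4 ratios of genes that hepatocytes also make.

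A few members carried much of the hepatocyte RNA. The list took 0.866% to 18.0% of the UMIs of a CON barcode with a median of 2.09%, under the pooled share, 4.4% to 10.1% in HFD with a median of 8.41%, and 6.35% to 20.7% in CCL4 with a median of 13.4%. The 3 CON members with the lowest sums of the 6 genes (4, 8 and 11) had 8003, 5365 and 20520 UMIs, 13.0% of the UMIs and 58.7% of the Alb UMIs of CON VSMC. The CCL4 member with a sum of 5 had 18.4% of the UMIs and 27.4% of the Alb UMIs of CCL4 VSMC. When at least 12 UMIs in the 6 genes were required, a limit chosen after seeing the data that left out these 4, the list took 2.47%, 7.55% and 12.5% of VSMC UMIs and the estimate became 12.9%, 49.0% and 56.7%. The ratio of Acta2 to CON outside the estimate then changed from 1.47 to 1.44 in HFD and from 0.924 to 0.919 in CCL4, and that of Vps4b, a gene with few UMIs described later, from 11.3 to 8.88 in CCL4. On all UMIs the HFD ratios of Acta2, Tagln and Notch3, whose intervals held 1, became 0.845 (0.745 to 0.955), 0.773 (0.667 to 0.892) and 0.445 (0.189 to 0.898).

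The first comparison asked which genes set VSMC apart from fibroblasts, the mesenchymal cells most like them. UMIs were summed per class and library, and the 6 sums were tested with edgeR's quasi-likelihood test with library as a block and Benjamini-Hochberg adjustment over the 2479 genes that passed its filter, leaving out all genes of both rules. Of these, 244 were higher in VSMC (9.84%) and 265 were lower (10.7%) at an adjusted p under 0.05, and 222 and 254 of them differed in that direction in all 3 libraries. The p-values measure the spread between these 3 libraries, which also differed in condition. The CON library carried most of the VSMC UMIs. Without it, 752 genes passed the filter and 63 were higher and 60 lower, and without the HFD library 176 were higher and 153 lower.

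The 12 genes farthest above fibroblasts had at most 2 UMIs in all fibroblasts together. Pln, phospholamban, the brake on the calcium pump of the sarcoplasmic reticulum, had 103, 19 and 17 UMIs in CON, HFD and CCL4 VSMC (394, 796 and 347 CPM) and none in the fibroblasts of any library. Against a floor of 3 counts over all fibroblasts it was at least 63.2-fold higher (edgeR adjusted p = 3.26e-15). Pcp4l1 had 113, 17 and 17 UMIs and was at least 66.8-fold higher, also with no fibroblast UMI. The bounds and ratios to fibroblasts given here and below pool the libraries and ignore the block. Their VSMC sums came mostly from CON (261266 UMIs) and their fibroblast sums mostly from HFD (260181 UMIs). Within CON alone the bounds of genes above fibroblasts would be lower. Log2 fold changes against fibroblasts come from the fit with the block.

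Further genes had no UMI in any fibroblast. Corin, the protease that activates atrial natriuretic peptide, had 172, 12 and 15 UMIs in VSMC and was at least 90.5-fold higher. Sncg, gamma-synuclein, had 180, 5 and 18 UMIs and was at least 92.3-fold higher. Myom1 had 137, 7 and 5 UMIs and was at least 67.7-fold higher.

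The remaining leading genes were lower in abundance. Actg2, the gamma form of smooth muscle actin, had 45, 9 and 4 UMIs and was at least 26.4-fold higher. Dgkb, a diacylglycerol kinase, Rasl12, a Ras-like protein, Tcap, a titin-binding protein of the Z-disc, and Susd5 were at least 27.7-fold, 23.6-fold, 28.6-fold and 15.5-fold higher. The adjusted p-values of these 5 genes lay between 7.73e-09 and 4.08e-05, and each had a UMI in the VSMC of all 3 libraries.

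Notch3, the Notch receptor of arterial smooth muscle and pericytes, gave 173, 8 and 10 UMIs in VSMC (662, 335 and 204 CPM) and 1, 0 and 0 in fibroblasts. The ratio pooled over the 3 libraries, which ignores library, was 261 (counting interval 46.2 to 10300). In CON, the only library with a fibroblast UMI, the levels were 662 against 6.31 CPM, a smaller ratio. The fit with library as a block gave a log2 fold change of 7.06 ± 0.69 (SE, edgeR adjusted p = 1.75e-13). Notch3 was seen in 46 of 49 CON barcodes, 5 of 8 HFD barcodes and 9 of 17 CCL4 barcodes. Rcan2, an inhibitor of calcineurin, had 153, 12 and 13 UMIs against 0, 2 and 0, a pooled ratio of 121 (33.1 to 1010).

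On the other side, the genes farthest below fibroblasts had no UMI in any of the 74 VSMC. Igfbp6, a binding protein of insulin-like growth factor 2, had 106, 73 and 10 UMIs in the fibroblasts of CON, HFD and CCL4 and was at least 46.2-fold lower in VSMC. Dpt, the matrix protein dermatopontin, had 49, 57 and 17 and was at least 30.1-fold lower. The mesothelial membrane protein Upk3b was at least 25.9-fold lower, and Gpm6a, a membrane glycoprotein, at least 42.5-fold. Clec3b, Mfap5 and Htra3 were at least 25.2-fold, 16.4-fold and 14.9-fold lower. Several of these genes are known from portal fibroblasts and mesothelium, which the collagen rule of the comparison class did not tell apart.

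**Figure D2:**
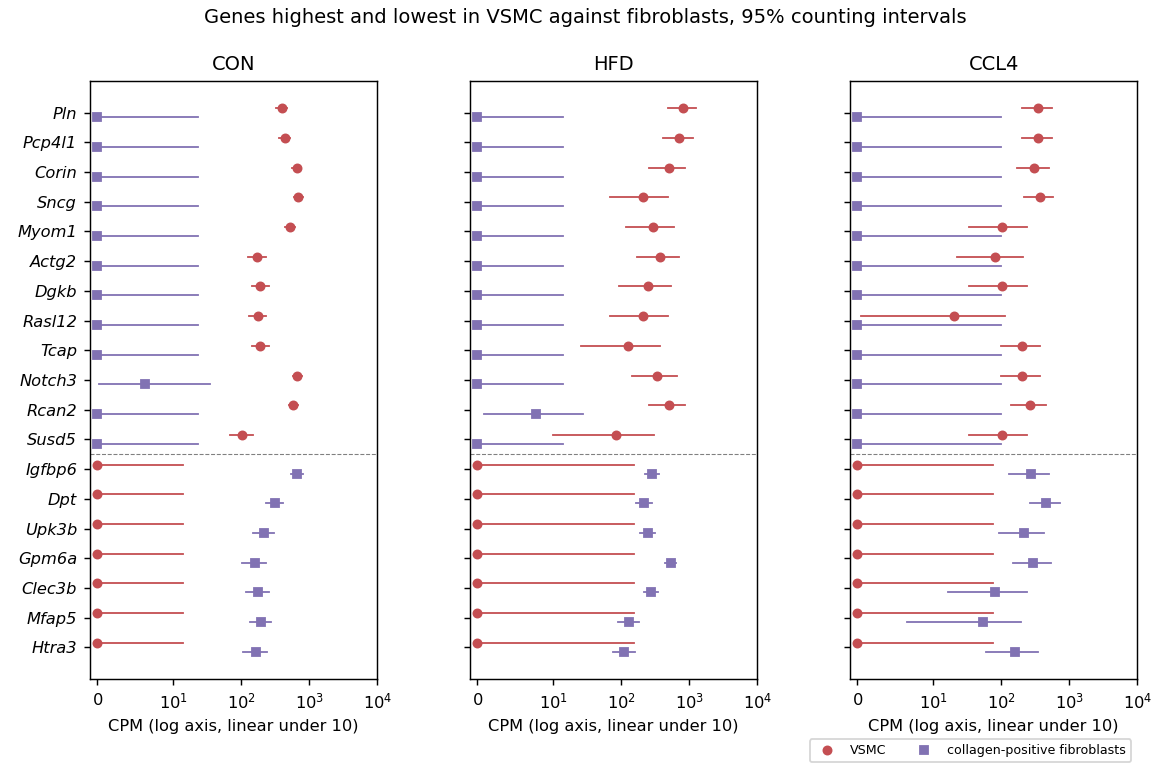
Level in CPM (log axis, linear under 10) of the 12 genes highest and 7 of the 8 lowest in VSMC against collagen-positive fibroblasts, by library, with exact 95% counting intervals. Circles are VSMC and squares are fibroblasts. The 7 genes under the dashed line were at 0 in the VSMC of all 3 libraries, and 10 of the 12 above it were at 0 in all fibroblasts.

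Genes of the contractile filaments were higher almost as a whole. Of the 29 genes of this list, all were tested, 27 were higher and 0 were lower, with a median log2 fold change of 3.07 against -0.14 over all genes tested. Tpm1, the tropomyosin that lies along actin, stood at 4010, 3640 and 1960 CPM in VSMC and at 120, 92.2 and 26.9 CPM in fibroblasts, a log2 fold change of 5.20 ± 0.31 (SE, edgeR adjusted p = 1.62e-23). The VSMC values of all 3 libraries lay above all 3 fibroblast values. Tpm2 at 2670, 1880 and 1430 CPM against 44.2, 30.7 and 0 differed by 5.96 ± 0.37.

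The other members named here were higher by log2 fold changes of 1.12 to 5.41, except for Tpm4. Lmod1, a nucleator of actin filaments, was at 743, 754 and 347 CPM against 18.9, 15.4 and 0 (log2 fold change 5.41 ± 0.48). Mylk, the myosin light chain kinase, was at 2200, 2090 and 1300 CPM against 240, 127 and 53.8 (3.65 ± 0.30), and Ppp1r14a, an inhibitor of myosin phosphatase, at 1000, 544 and 612 CPM against 151, 38.4 and 80.6 (3.02 ± 0.37). Des, the intermediate filament desmin, rose by 3.48 ± 0.42, the crosslinker Flna by 3.31 ± 0.34, Smtn, smoothelin, by 2.64 ± 0.39 and Myl6 by 2.40 ± 0.24. Vcl passed with 1.12 ± 0.40 (edgeR adjusted p = 0.0363). Tpm4, a nonmuscle tropomyosin, with 0.06 ± 0.39 did not pass (edgeR adjusted p = 0.956). The list was chosen with earlier results of these data known, and its members are the kind of gene the rule selected on.

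The regulators of this programme were scarce. Of 14 genes of SRF, its cofactors and related factors, 6 could be tested and 4 were higher. Myocd, myocardin, had 44, 5 and 4 UMIs in VSMC and 0, 1 and 0 in fibroblasts, a log2 fold change of 5.90 ± 0.96 (edgeR adjusted p = 7.32e-07). Mef2c, a muscle transcription factor, was at 823, 544 and 387 CPM against 133, 65.3 and 108 (2.61 ± 0.37). Heyl, a Notch effector, and Fhl1 also passed, with 4.51 and 1.49. Srf itself had 6, 0 and 0 UMIs, too few to test.

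Genes that move calcium and carry ion currents mostly had few UMIs. Of 24, 7 were tested, 4 were higher and 1 was lower, and the median was 1.28. Atp2a2, the calcium pump that phospholamban holds back, was at 819, 544 and 530 CPM against 271, 173 and 215 (log2 fold change 1.53 ± 0.32), and Atp2b4, the plasma membrane pump, and Itpr1, the inositol trisphosphate receptor, passed with 1.33 and 1.28. Abcc9, the regulatory subunit of the ATP-sensitive potassium channel of pericytes, was lower by a log2 fold change of -5.35 ± 0.57, with 4, 0 and 0 UMIs against 562, 361 and 269 CPM in fibroblasts. Its channel partner Kcnj8 had 1 UMI.

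Channels known from large-vessel smooth muscle were too sparse for the test but were on the VSMC side. Kcna5, a voltage-gated potassium channel, had 55, 2 and 2 UMIs, Kcnmb1, the smooth muscle subunit of the large-conductance potassium channel, 40, 2 and 1, and Cacna1c, the L-type calcium channel, 33, 2 and 2, all against none in fibroblasts. Pooled over libraries they were at least 26.8-fold, 19.6-fold and 16.8-fold higher. Ryr2, a ryanodine receptor, with 29, 1 and 3 UMIs was at least 15-fold higher. These bounds cover counting error only and pool the libraries as described above. The VSMC UMIs came mainly from CON and the fibroblast floor mainly from HFD. Within each library alone the bounds of these 4 genes would be lower.

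Few receptors for vasoactive hormones could be tested. Of 28, 6 were tested, 1 was higher and 5 were lower. When barcodes with endothelial UMIs were left out of both classes, with the VSMC barcode richest in hemoglobin, 1 of them could be tested, Ramp1, which was higher, and none of the 5 lower ones was left to test. Ramp1, the partner that makes the calcitonin receptor-like protein a receptor for calcitonin gene-related peptide, was at 222, 377 and 183 CPM against 114, 99.9 and 161 (log2 fold change 1.08 ± 0.40, edgeR adjusted p = 0.0458). Calcrl, the calcitonin receptor-like protein, had 8, 0 and 1 UMIs and fell by 3.19 on the log2 scale. Agtr1a, the angiotensin II receptor, had 4, 0 and 0 UMIs against 177, 119 and 134 CPM in fibroblasts (-3.78 ± 0.74), and Ednrb, an endothelin receptor, had 6, 2 and 0 (-2.57 ± 0.59). Ednra, the endothelin receptor of smooth muscle, had 20, 1 and 0 UMIs, and its pooled ratio to fibroblasts was 0.988 (0.535 to 1.79). When the library block was left out, 3 of 4 tested were lower, and DESeq2 called 2 of 6 lower and Ramp1 not.

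The cyclic GMP pathway, through which nitric oxide relaxes vessels, was higher at several steps. Of 20 genes of this list and of regulators of G-protein signalling and small GTPases, 19 were in the files, 10 were tested and 5 were higher, with a median of 1.74. Gucy1a1, a subunit of the nitric oxide receptor, was at 498, 796 and 285 CPM against 88.3, 57.7 and 53.8 (log2 fold change 2.95 ± 0.39). Irag1, a target of the cyclic GMP kinase at the calcium store, was at 256, 209 and 122 CPM against 18.9, 23.1 and 0 (3.48 ± 0.58). The phosphodiesterases Pde5a and Pde3a and Rock1, a kinase that inhibits myosin phosphatase, passed with 2.94, 2.70 and 2.27. Prkg1, the kinase itself, had 56, 2 and 3 UMIs and a pooled ratio of 5.94 (3.29 to 11.5).

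Genes commonly used for pericytes did not move together. Of 15, 9 were tested, 4 were higher (Notch3, Cspg4, Aspn and Mcam) and 3 lower (Abcc9, Cygb and Steap4), and the median was 0.23. Cspg4, the NG2 proteoglycan, had 78, 3 and 3 UMIs against 0, 0 and 1, and Mcam, a cell adhesion protein, was at 570, 377 and 163 CPM against 63.1, 19.2 and 26.9 (log2 fold change 3.40 ± 0.46). Pdgfrb, the receptor that recruits mural cells, was at 176, 126 and 163 CPM in VSMC and 183, 127 and 108 in fibroblasts (0.05 ± 0.41, edgeR adjusted p = 0.962). Without the CON library 3 of these genes could be tested, 0 were higher and 3 were lower.

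Notch signalling between cells sets the arterial state of smooth muscle. Of 16 of its genes, 5 were tested and 4 were higher. Besides Notch3 and Heyl these were Jag1, a ligand, at 295, 41.9 and 143 CPM against 44.2, 19.2 and 80.6 (log2 fold change 2.11 ± 0.51), and Hes1, a target, at 425, 461 and 387 CPM against 139, 119 and 269 (1.43 ± 0.35). The HFD value of Jag1 in VSMC lay below the CON and CCL4 fibroblast values. Hey2, a target gene too sparse to test, had 45, 2 and 4 UMIs and a pooled ratio of 23.2 (7.5 to 116). Without the CON library 1 gene could be tested and it did not pass.

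Of 27 genes of fibrillar collagens and interstitial proteoglycans outside the rule, 15 were tested, 7 were lower and 1 was higher, with a median of -1.14. Lum, lumican, which spaces collagen fibrils, had 1, 0 and 0 UMIs against 448, 365 and 430 CPM in fibroblasts, a ratio of 0.00749 (0.000189 to 0.0423). Col6a1, of microfibrillar collagen VI, also had 1 UMI, and Bgn, biglycan, was at 570, 419 and 122 CPM against 1040, 577 and 779 (log2 fold change -1.14 ± 0.31). Ogn, osteoglycin, was the higher one, at 528, 586 and 122 CPM against 94.7, 269 and 53.8 (1.73 ± 0.37).

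Of 26 genes of basement membrane and elastic fibres, 15 were tested, 4 were higher and 3 lower, with a median of 0.15. Sparcl1, an antiadhesive matrix protein, was at 1390, 1130 and 612 CPM against 139, 46.1 and 53.8 (log2 fold change 3.75 ± 0.35), and Lamb2, a laminin chain, and Itga8, an integrin chain, passed with 2.55 and 1.77. Sparc and the basement membrane linker Nid1 were lower, with -1.74 and -2.50. Without the library block 10 genes of this list were tested, 1 was higher and 0 were lower. Eln, elastin, was at 241, 209 and 102 CPM against 69.4, 415 and 161 and did not pass (0.38 ± 0.41, edgeR adjusted p = 0.640). Of 18 genes of the TGF-beta pathway and YAP targets, 9 were tested, 3 were higher and 2 lower. Thbs1, thrombospondin, which activates latent TGF-beta, stood at 800, 837 and 510 CPM against 75.7, 111 and 53.8 (3.11 ± 0.36).

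Markers of the neighbouring mesenchymal cells were lower. Of 21 stellate cell genes, 19 were tested, 15 were lower and 1, Des, was higher, with a median of -3.70. Reln, a secreted glycoprotein, had 3, 0 and 0 UMIs against 385, 242 and 511 CPM in fibroblasts (ratio 0.0286, 0.00583 to 0.0853), and Lrat, which stores retinol as ester, had 7, 0 and 0 against 574, 158 and 188 CPM (log2 fold change -4.54 ± 0.55). Of 22 portal fibroblast genes, 13 were tested and all 13 were lower. Their median was -4.84, or -4.18 with the 5 genes that had no VSMC UMI put at their bound. All 9 endothelial genes tested were also lower, and that list took 5490, 1780 and 2120 CPM in fibroblasts. With the same barcodes left out of both classes, no endothelial gene passed the filter, and 7 of 9 stellate genes, 9 of 9 portal fibroblast genes and 25 of 26 contractile genes were still past the threshold in the same direction.

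Some immediate early genes, which respond within minutes to stimuli and to tissue dissociation, were higher in VSMC. Of 24 immediate early and heat shock genes, 21 were tested, 11 were higher, 1 was lower and 9 did not pass, with a median of 1.04. Fos, a part of the AP-1 factor, was at 7490, 5740 and 3890 CPM in VSMC against 1570, 2390 and 2070 in fibroblasts (log2 fold change 1.5 ± 0.23, edgeR adjusted p = 1.95e-07). Nr4a1, an orphan nuclear receptor, was at 1280, 1170 and 775 CPM against 56.8, 284 and 215 (2.80 ± 0.34). For both genes all VSMC values lay above all fibroblast values.

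The small heat shock proteins Hspb1 and Cryab, which are abundant in muscle, passed with 1.52 each, and Hspa1b, an inducible chaperone, was lower (-1.42 ± 0.42). The list as a whole took 37500, 30100 and 19800 CPM of VSMC, 14200, 15400 and 14500 of fibroblasts, 19000, 11300 and 12300 of endothelial cells and 5140, 3700 and 5280 of hepatocytes. The part of dissociation in these levels was not tested. Without the library block 5 of 21 genes were higher and 0 lower, and with no filter on low counts 5 of 24 were higher.

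Most tested genes of inflammation and antigen display were lower. Of 18 interferon-stimulated and major histocompatibility genes, 10 were tested, 8 were lower and 0 higher, with a median of -1.33. H2-K1, a class I heavy chain, was at 750, 921 and 815 CPM against 2640, 3130 and 2420 (log2 fold change -1.73 ± 0.24, edgeR adjusted p = 1.61e-08), and its partner B2m at 597, 1050 and 1410 CPM against 2040, 1840 and 2630 (-1.22 ± 0.25). DESeq2 called 4 of the 10 lower, and the fit without the library block 3 of 8. Without barcodes with endothelial UMIs in either class and the VSMC barcode richest in hemoglobin, 4 of 7 were lower. Of 24 cytokine and chemokine genes, 7 were tested and 5 were lower. Among them were Cxcl12, a stromal chemokine, with 12, 0 and 7 UMIs against 1380, 938 and 860 CPM (-4.28 ± 0.41), and Ccl2, which draws monocytes, with 4, 0 and 0 UMIs. Without the library block 3 of 6 genes of this list were lower, and with the same barcodes left out 1 of 3.

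Of 21 genes reported for smooth muscle that has left the contractile state, 13 were tested, 6 were lower (Icam1, Vcam1, Anxa2, S100a10, Ly6a and Lgals1) and 1, the flow-responsive factor Klf2, was higher. Lgals1, galectin 1, was at 387, 293 and 204 CPM against 940, 419 and 269 (log2 fold change -0.95 ± 0.33), and Vcam1, an adhesion molecule, had 7, 0 and 0 UMIs. All 26 Ly6a UMIs of VSMC came from 1 barcode. Without the block 1 of 11 was lower, and without the CON library 1 of 9. Of 10 proliferation genes none could be tested, and Mki67, Top2a, Ccna2, Ccnb1, Cdk1 and Birc5 had 0 UMIs in all 74 barcodes.

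Of 22 genes of metabolism and redox defence, 14 were tested, 5 were lower and 0 higher. DESeq2 called 1 of the 14 lower, the fit without the library block 0 of 12, and the fit without barcodes with endothelial UMIs in either class and without the barcode richest in hemoglobin 1 of 8. They included Gpx3, a secreted glutathione peroxidase with no VSMC UMI, and Mt2, a metallothionein, with 309, 0 and 2 UMIs (1180, 0 and 40.8 CPM against 1820, 388 and 269). Of 26 growth factors and niche signals, 10 were tested, 4 were lower and 1 was higher. Pdgfa, a ligand of the PDGF receptors, was the higher one at 214, 126 and 245 CPM against 69.4, 42.3 and 26.9 (log2 fold change 1.78 ± 0.47), and Igfbp3, Rspo3, Bmp5 and Igfbp4 were lower. DESeq2 called 0 of the 10 higher and 3 lower (Pdgfa adjusted p = 0.0919), the fit without the library block 1 of 7 in each direction, and without the CON library none of 5 passed. Without barcodes with endothelial UMIs in either class and the barcode richest in hemoglobin, 3 of 7 were lower and Pdgfa did not pass. None of the 20 hepatocyte genes passed in either direction, with a median of -0.16.

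**Figure D3:**
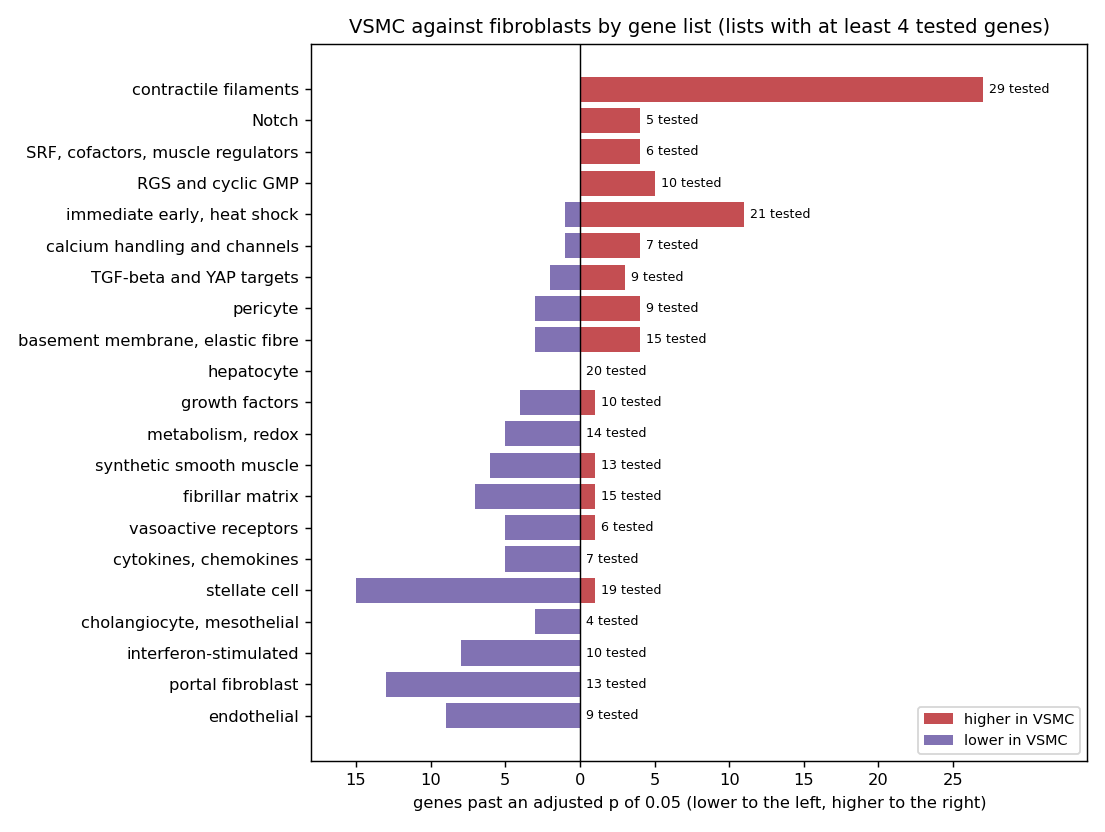
Number of genes past an adjusted p of 0.05 in VSMC against fibroblasts for each gene list with at least 4 tested genes, lower genes to the left and higher genes to the right, with the number tested beside each bar. The contractile list had 27 of 29 genes higher, and the stellate and portal fibroblast lists had 15 of 19 and 13 of 13 genes lower.

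How far these counts rest on the CON library was seen by leaving it out. Then 15 of 16 tested contractile genes and 8 of 14 immediate early and heat shock genes were higher in VSMC, and 6 of 8 stellate, 5 of 5 portal fibroblast and 4 of 8 interferon-stimulated genes were lower. No vasoactive receptor could be tested, 2 of 3 calcium and channel genes were higher, and 1 of 4 basement membrane genes was higher. Without the HFD library 1 of 4 tested genes of SRF and its cofactors was higher, against 4 of 6 with it, and without the library block this count was also 1 of 4.

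Other counts moved with the tool or the members. DESeq2 called 2 of 7 calcium and channel genes and 2 of 5 Notch genes higher, 1 of 15 basement membrane genes higher, 1 of 9 TGF-beta pathway genes higher and 0 lower, 3 of 13 genes of noncontractile smooth muscle lower and neither neurotrophic gene. With at least 12 UMIs in the 6 genes, 291 genes were higher and 220 lower of 2402 tested, and 459 of the 506 earlier calls tested again were kept. The cyclic GMP and G-protein list then had 8 of 10 genes higher and the contractile list 28 of 29. The interferon-stimulated list had 6 lower and 1 higher of 10, and the endothelial list 7 lower of 9. In all, 13 called genes of the lists no longer passed, among them Bgn, Lgals1, Ly6a, Hspa1b and Igfbp4 (edgeR adjusted p = 0.0875, 0.361, 0.135, 0.0807 and 0.0647).

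Neurotrophic factors, which the study was about, were sparse in VSMC. Bdnf, brain-derived neurotrophic factor, had 5 UMIs in 3 of 49 CON barcodes (19.1 CPM, exact 95% interval 6.21 to 44.7) and 0 UMIs in HFD and CCL4, where a count of 0 allows up to 3. Hepatocyte barcodes held it at 2.29, 6.11 and 4.00 CPM. Tlr4, a pattern recognition receptor that the study also followed, had 3, 0 and 0 UMIs in VSMC.

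Other genes of these pathways were easier to see. Ntf3, neurotrophin 3, had 27, 1 and 1 UMIs in VSMC against 4, 2 and 0 in fibroblasts, a pooled ratio of 6.59 (2.69 to 19.4). That ratio ignores library, and the ratio within CON and that within HFD were lower. Sort1, sortilin, a sorting receptor of proneurotrophins, was at 103, 167 and 20.4 CPM against 6.31, 19.2 and 0 and was higher (log2 fold change 3.32 ± 0.84, edgeR adjusted p = 0.00127). Of the 18 genes of this list, 2 could be tested and Sort1 was the one that passed. DESeq2 called neither, and without the HFD library 1 could be tested and did not pass.

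The second question was how VSMC differed between the conditions. With 1 library per condition there is no test across samples, so each value is given with a counting interval, and fewer cells of a kind cannot be told apart from less RNA per cell. Of 3012 genes with at least 20 UMIs over the 3 libraries, 307 were at least 2-fold higher in HFD than in CON (10.2%) and 635 at least 2-fold lower (21.1%), on the ratio of CPM plus 20. In CCL4, 313 were at least 2-fold higher (10.4%) and 769 lower (25.5%). Both contrasts share the CON library. The higher genes were thus 32.6% of those past 2-fold in HFD and 28.9% in CCL4. When totals were instead the UMIs outside the estimated hepatocyte RNA, with the counts of each gene left as they were, these shares were 64.5% and 78.7%. That scaling moved the median log2 ratio of all genes from -0.17 to 0.36 in HFD and from -0.32 to 0.66 in CCL4. Genes that hepatocytes also make keep all their UMIs on it, which raises the values over all genes. Beside them, a list that hepatocytes make little of stands lower for that reason too, and by how much was not tested. This bears on the contractile, pericyte and immediate early lists below.

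The contractile genes of the rule depended on this scale. Acta2 in HFD was 0.967 times CON (0.853 to 1.09) on all UMIs and 1.47 times (1.30 to 1.66) on UMIs outside the estimated hepatocyte RNA. In CCL4 it was 0.434 times CON (0.381 to 0.493) on the first scale and 0.924 times (0.811 to 1.05) on the second. Tagln turned with the scale in both conditions, in HFD from 0.887 times CON (0.766 to 1.02) to 1.35 times (1.16 to 1.56) and in CCL4 from 0.504 times (0.439 to 0.576) to 1.07 times (0.935 to 1.23). Cnn1 in HFD turned from 0.792 (0.387 to 1.46) to 1.2 (0.588 to 2.22), with 1 inside both intervals.

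Myh11 moved likewise, in HFD from 0.569 (0.441 to 0.724) to 0.866 (0.671 to 1.10) and in CCL4 from 0.388 (0.313 to 0.477) to 0.826 (0.666 to 1.01). Myl9 in CCL4 was below CON on both scales, at 0.275 (0.209 to 0.356) and 0.585 (0.445 to 0.757). Together the 6 genes were 3.5%, 2.64% and 1.37% of all VSMC UMIs in CON, HFD and CCL4, and 4.51%, 5.17% and 3.75% of the UMIs outside the estimated hepatocyte RNA. Of the contractile list outside the rule, 2 genes were at least 2-fold higher and 3 lower in HFD, and 0 were higher and 12 lower in CCL4, all of 29, on all UMIs. The medians were -0.25 and -0.92 on the log2 scale, beside -0.17 and -0.32 over all genes. Outside the estimated hepatocyte RNA, 2 were higher and 2 lower in HFD and 1 was higher and 1 lower in CCL4, with medians of 0.32 and 0.07 beside 0.36 and 0.66 over all genes. Over all genes 26.1% were higher and 14.3% lower in HFD on that scale, and 36.4% and 9.86% in CCL4. The scale itself shifts these values over all genes upward, as described above. Tpm1 in CCL4 was 0.488 times CON (0.392 to 0.602) on all UMIs and 1.04 times (0.833 to 1.28) outside the estimate.

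Rgs5 was below CON on both scales. In HFD it was 0.0142 times CON (0.00036 to 0.0796) on all UMIs and 0.0217 times (0.000548 to 0.121) outside the estimated hepatocyte RNA, and in CCL4 0.0277 (0.00754 to 0.0713) and 0.0590 (0.0160 to 0.152). In fibroblasts it was at 1120, 396 and 538 CPM in CON, HFD and CCL4, and Rgs5 chose VSMC but not fibroblasts. Of the pericyte list, 10 genes had at least 20 UMIs. In HFD 4 were at least 2-fold lower and 0 higher (40.0% beside 21.1% lower over all genes), and in CCL4 9 were lower and 0 higher (90.0% beside 25.5%), on all UMIs. Outside the estimated hepatocyte RNA 3 were lower in HFD and 4 in CCL4 (of 10, beside 14.3% and 9.86% over all genes) and 0 higher, and Pdgfrb in CCL4 turned from 0.926 times CON (0.378 to 1.98) on all UMIs to 1.97 times (0.803 to 4.22). Aspn in HFD turned from 0.902 times CON (0.379 to 1.85) to 1.37 times (0.576 to 2.81). All 4 intervals held 1. Rgs4, a related regulator, had 71 UMIs in CON, 0 in HFD and 3 in CCL4 (272, 0 and 61.2 CPM), at least 2.16-fold lower in HFD against a floor of 3 HFD counts. Its counting interval, which also takes in the error of the CON count, reached 0.583 times CON on all UMIs and 0.887 times outside the estimated hepatocyte RNA.

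**Figure D4:**
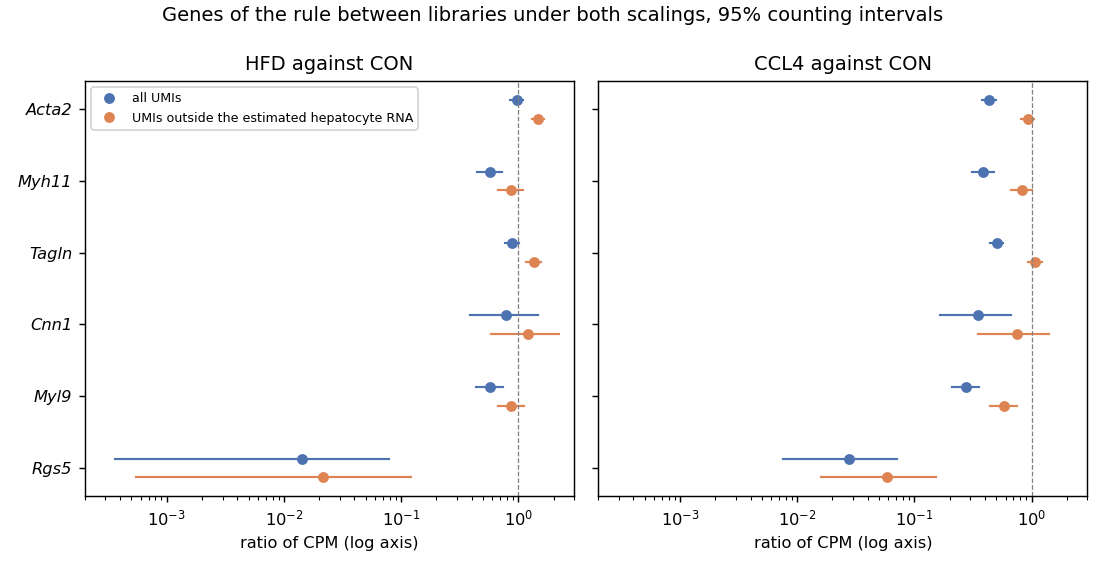
Ratio of the VSMC level in HFD (left) and CCL4 (right) to that in CON for each rule gene on a log axis, with exact 95% counting intervals, relative to all UMIs and to UMIs outside the estimated hepatocyte RNA. Tagln in CCL4 (0.504 and 1.07) and Acta2, Tagln and Cnn1 in HFD cross 1 between the scales, and Rgs5 stays under 0.06 in all 4 ratios.

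Genes named next were ranked among those with at least 2 times the level of all other barcodes in the library where they were higher, which leaves out Alb and Mt2. The genes farthest up in HFD VSMC were hemoglobins. Hbb-bs had 14, 87 and 4 UMIs in CON, HFD and CCL4, and 86 of the 87 were in 1 barcode. Hba-a1, Hba-a2 and Hbb-bt likewise had 42 of 42, 39 of 40 and 30 of 30 HFD UMIs in 1 barcode. After these came Proc, the anticoagulant protein C made by hepatocytes, at 38.3 CPM in CON and 335 in HFD (10 and 8 UMIs, ratio 8.75, 3.00 to 24.6), and Lmcd1, a regulator of muscle transcription, at 42.1 and 335 CPM (11 and 8 UMIs, ratio 7.96, 2.78 to 21.7, or 12.1, 4.22 to 33.0, outside the estimated hepatocyte RNA). Proc was at 136 CPM in all other HFD barcodes, whereas Lmcd1 was at 1.92. Of the 8 Lmcd1 UMIs, 5 were in 1 barcode, and without it the ratio was 3.4 (0.609 to 12.9) on all UMIs.

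Besides Rgs5 and Rgs4, the genes farthest down in HFD within that limit had no HFD UMI, at 59 to 61 CON UMIs for those named here. Against a floor of 3 HFD counts Ppp1r12c, a myosin phosphatase subunit, was at least 1.86-fold lower. Gjc1, a gap junction protein of smooth muscle, and Map3k7cl were each at least 1.80-fold lower. Their counting intervals reached 0.682, 0.706 and 0.706 times CON on all UMIs and 1.04, 1.07 and 1.07 times outside the estimated hepatocyte RNA, so on that scale they held 1.

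In CCL4 the genes farthest up within the same limit had few UMIs. Vps4b, of membrane scission, was at 42.1 CPM in CON and 224 in CCL4 (11 and 11 UMIs, ratio 5.33, 2.09 to 13.5), and Nipa2, Eci2, Idh3g and Pam16 followed with ratios of 4.26, 3.99, 3.39 and 3.20. Outside the estimated hepatocyte RNA these 5 ratios were 11.3, 9.07, 8.5, 7.21 and 6.8, with the gene counts left as they were. All other CCL4 barcodes held the same 5 genes at 75.1, 67.1, 67.4, 45.0 and 91.0 CPM. How much of the VSMC counts came from other cells was not tested, and this scale can overstate the ratios. Without the barcode richest in each gene the ratios were 4.15 (1.37 to 11.7), 2.78 (0.745 to 8.93), 3.26 (1.01 to 9.4), 2.01 (0.467 to 6.79) and 2.58 (0.891 to 6.73) on all UMIs. Txnip, an inhibitor of thioredoxin that also restrains glucose uptake, had 80, 10 and 41 UMIs (306, 419 and 836 CPM). Its CCL4 ratio was 2.73 (1.83 to 4.03) on all UMIs and 5.81 (3.89 to 8.57) outside the estimate. All other CCL4 barcodes held it at 369 CPM, so the same limit applies. Of the 41 CCL4 UMIs, 22 were in 1 barcode, without which the ratio was 1.43 (0.816 to 2.37) on all UMIs. Below CON in CCL4, after Rgs5 and within the same limit, were Fry, Pdcl3, Tgfb3, Tuba1b and Fgfr1, with 76, 54, 51, 50 and 47 CON UMIs and 0 in CCL4. Against a floor of 3 CCL4 counts Fry was at least 4.76-fold lower on all UMIs, and its counting interval reached 0.265 times CON on all UMIs and 0.564 times outside the estimated hepatocyte RNA. Tgfb3, a TGF-beta ligand that was also at 0 in HFD, was at least 3.19-fold lower, with intervals that reached 0.399 and 0.85 times CON on the same scales.

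Of 21 immediate early and heat shock genes, 8 (38.1%) were at least 2-fold lower and 0 higher than CON in each condition on all UMIs, beside 21.1% lower in HFD and 25.5% in CCL4 over all genes. The medians were -0.68 and -0.90, beside -0.17 and -0.32. Outside the estimated hepatocyte RNA 4 were lower in each (19.0%, beside 14.3% and 9.86%) and 1 was higher in HFD. The medians were then -0.10 and 0.16, beside 0.36 and 0.66 over all genes, values that this scale shifts upward as described above. Btg2, an antiproliferative gene, was above CON in HFD on both scales, at 1.90 times (1.46 to 2.45) on all UMIs and 2.89 times (2.22 to 3.72) outside the estimate. Egr1, a zinc finger factor, turned in HFD from 0.963 times CON (0.794 to 1.16) to 1.46 times (1.21 to 1.76). Fos was 0.765 times CON (0.639 to 0.911) in HFD and 0.52 times (0.445 to 0.603) in CCL4 on all UMIs, and 1.16 times (0.971 to 1.38) and 1.11 times (0.948 to 1.28) outside the estimate.

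Notch3 in HFD was 0.506 times CON (0.215 to 1.02) on all UMIs and 0.769 times (0.327 to 1.55) outside the estimated hepatocyte RNA, and in CCL4 0.308 times (0.145 to 0.58) and 0.655 times (0.309 to 1.23). Pln in HFD was above CON on both scales, at 2.02 times (1.17 to 3.31) and 3.07 times (1.78 to 5.04). Of its 19 HFD UMIs, 7 were in 1 barcode and 6 in another, and no ratio was computed without them. In CCL4 the direction of Pln turned with the scale, from 0.879 times CON (0.493 to 1.48) on all UMIs to 1.87 times (1.05 to 3.14) outside the estimate.

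VSMC of the CON library were not uniform in Rgs5. In 22 barcodes it was seen, with a median of 24 UMIs, and in 27 it was not. The groups were made on Rgs5 itself, had median depths of 4414 and 5021 UMIs, and come from 1 library, so ratios between them are a description. Of the 15 pericyte genes, 10 had at least 20 UMIs, and for 7 of these (Notch3, Pdgfrb, Cspg4, Higd1b, Ndufa4l2, Cox4i2 and Aspn) the counting interval of the ratio lay above 1, as it did for 11.4% of all genes with that many UMIs. Higd1b, a hypoxia-induced mitochondrial protein, was at 196 CPM against 19.5 (ratio 10.1, 3.01 to 52.8), Ndufa4l2, a mitochondrial complex protein, at 327 against 58.4 (5.6, 2.64 to 13.3) and Pdgfrb at 299 against 90.8 (3.29, 1.71 to 6.68). For Mcam (0.819, 0.575 to 1.16), Steap4 (0.713, 0.491 to 1.02) and Gja4 (1.28, 0.707 to 2.31) it held 1. The 3 CON members with the lowest sums were all without Rgs5. Leaving them out, Higd1b, Ndufa4l2 and Pdgfrb stood at 7.87, 4.37 and 2.57, Notch3, Cspg4 and Aspn at 1.16 (0.853 to 1.59), 1.38 (0.863 to 2.22) and 1.25 (0.82 to 1.9), Mcam at 0.639 (0.449 to 0.902) and Steap4, a metalloreductase, at 2.4 (1.42 to 4.18), so its direction turned.

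Of the contractile list outside the rule, all 29 genes had at least 20 UMIs, and the counting interval lay below 1 for 12 and above 1 for 0, with a median ratio of 0.816 beside 1.05 over 2395 genes, of which 11.4% lay below. Among the 12 were Sorbs2 (0.358, 0.276 to 0.460), Csrp1 (0.441, 0.325 to 0.592) and Tpm1 (0.738, 0.647 to 0.840). Without the 3 members with the lowest sums it was 21 of 29 genes, beside 7.84% of 2116. The genes of the rule, whose sum with Rgs5 chose the barcodes, are given as a description. Acta2 was at 9240 CPM where Rgs5 was seen and 14300 where it was not (ratio 0.648, 0.6 to 0.698), Myh11 was at 4030 and 5930 (0.679, 0.604 to 0.763), and Cnn1 at 327 and 759 (0.431, 0.287 to 0.633). Pln and Des did not differ beyond counting error, with ratios of 0.842 (0.549 to 1.28) and 0.857 (0.631 to 1.16). The hepatocyte gene Alb was at 1860 CPM against 5430 (0.342, 0.292 to 0.4), and without the 3 members with the lowest sums at 1860 against 1900 (0.977, 0.804 to 1.19). Acta2, Myh11 and Cnn1 then stood at 0.508 (0.471 to 0.548), 0.534 (0.475 to 0.6) and 0.339 (0.225 to 0.499), Pln at 0.667 (0.435 to 1.01) and Des at 0.669 (0.492 to 0.903). Those 3 members were chosen on the sum that Acta2, Myh11 and Cnn1 enter. Both barcodes with endothelial UMIs had Rgs5. Without them Acta2, Myh11 and Cnn1 stood at 0.736 (0.681 to 0.795), 0.768 (0.681 to 0.864) and 0.525 (0.349 to 0.771), 9 of the 29 contractile genes lay below 1 and 1, Filip1l, above it, Higd1b, Ndufa4l2 and Pdgfrb stood at 12.3, 6.24 and 3.13, and Steap4 at 0.443 (0.271 to 0.699).

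**Figure D5:**
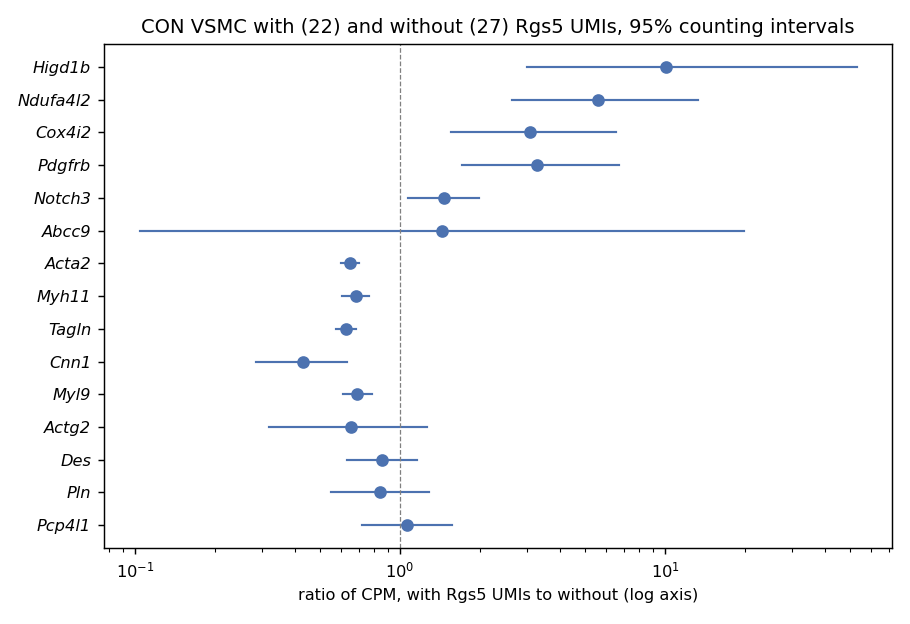
Ratio of the level in the 22 CON VSMC barcodes with Rgs5 UMIs to that in the 27 without, on a log axis, with exact 95% counting intervals. Higd1b, Ndufa4l2, Cox4i2 and Pdgfrb lie to the right of 1 and Acta2, Myh11, Tagln, Cnn1 and Myl9 to its left.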

How the data were processed

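Single-cell libraries of 3 pools of mouse liver cells (CON, HFD and CCL4) were analysed. The deposited values are UMI counts from Cell Ranger (7.2.0 in the matrix header), which the authors left unnormalized. The study's methods name mm10 and the submitters' processing notes GRCm39, so positions are those of GENCODE and RefSeq for GRCm38 and not of the counting. All 55357 features were read. The members and gene lists were chosen with earlier results of these data known. Counts were summed per class and library and tested with edgeR 4.0.16 (R 4.3.3; filterByExpr, TMM, quasi-likelihood, library as block) and, as an alternative, DESeq2 1.42.0. The block was used because both classes of a library come from the same mice. Intervals are 95% exact Poisson, Clopper-Pearson or conditional, computed with scipy 1.17.1 in Python 3.11.15, and a count of 0 was given a floor of 3 counts.

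Genes named are those of the rule, the 12 highest and 8 lowest past the threshold that moved the same way in all libraries, the 6 highest and 6 lowest per library contrast with at least 2 times the level of all other barcodes, list members by adjusted p or abundance, Bdnf and Tlr4; a few genes that this selects are not reported here. Scaling outside the estimated hepatocyte RNA, a limit of 12 UMIs in the 6 genes and leaving out barcodes with endothelial or hemoglobin UMIs were chosen after seeing the data. On simulated data for VSMC against fibroblasts (2607 genes) the test recovered 58.6% of 4-fold and 100.0% of 16-fold changes. The simulation used a fixed assumed spread and changed only genes above a minimum of expected counts. Recovery of sparser genes was therefore not measured.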

Additional observations from a re-analysis of the deposited data

How the results depend on the processing

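No gene called between VSMC and fibroblasts and tested again changed direction under an alternative that was run. The number higher and lower, 244 and 265, was 134 and 128 with DESeq2 and 110 and 79 without the replicate block by library, where 1879 genes passed the filter. Leaving out each library in turn gave 63 to 324 higher and 60 to 292 lower genes, and 15 to 27 of the contractile list, the lowest of each without CON. Leaving out the barcode with most hemoglobin and those with endothelial UMIs in both classes, chosen after seeing the data, gave 154 higher and 91 lower of 1203 tested genes, and 221 of the 270 earlier calls tested again were kept. DESeq2 kept 262 of 509 calls. The cause of these differences was not tested. Other filters, scalings and limits moved these counts by less than 1.5 times, and the contractile list stayed at 22 to 28 genes.

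Between libraries, HFD against CON gave 307 higher and 635 lower genes. The counts were 135 and 214 with CPM plus 100, 119 and 217 with at least 50 UMIs, and 1422 and 2315 with no minimum. Outside the estimated hepatocyte RNA 785 were higher and 432 lower. For CCL4 against CON, 313 and 769 became 165 and 234, 131 and 285, and 1327 and 1927 in the same order, and 1095 and 297 outside the estimated hepatocyte RNA, where Tagln reversed to 1.07. With at least 12 UMIs in the 6 genes these counts outside the estimate were 801 and 361 for HFD and 888 and 303 for CCL4, with Tagln at 1.08, and on all UMIs they moved by less than 1.5 times. The higher share of CCL4 genes past 2-fold was 41.4% with CPM plus 100 and 40.8% with no minimum. Barcode counts per library stayed within 1.5 times under every limit tried. The HFD and CCL4 sums were the shallowest, and by its counting interval a gene with 71 or fewer CON UMIs that was absent from HFD could not be shown to be 2-fold lower.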

Other observations

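Without the 2 barcodes that carried endothelial UMIs, 20 CON VSMC with Rgs5 and 27 without were compared. Of 962 genes with 40 UMIs or more, 413 were ranked, on CPM to which 50 was added. Alb, at a ratio of 0.381 (0.323 to 0.448), was not among them. Every ranking below is within these 413 genes. This split was made after seeing the data and has no test. The genes farthest up with Rgs5 were Ccnd1, cyclin D1, at 409 CPM against 38.9 (ratio 10.5, counting interval 4.39 to 30.6, 13 UMIs at most in a barcode), Rasl11a, a Ras-like protein, at 569 against 84.3 (6.75, 3.61 to 13.5), Ndufa4l2 (6.24) and Kitl, the ligand of the Kit receptor, at 432 against 90.8 (4.76, 2.52 to 9.51). Slc8a1, the sodium-calcium exchanger, was at 557 against 175 CPM (3.18, 1.95 to 5.30). Among the 10 farthest down were Cpe, a peptide-processing carboxypeptidase, at 34.1 against 279 CPM (0.122, 0.0243 to 0.382), Ogn at 182 against 791 (0.230, 0.127 to 0.389), with Ogn seen in 3 of 20 and 22 of 27 barcodes, Ltbp1, which anchors latent TGF-beta, at 125 against 409 (0.306, 0.146 to 0.586) and the Z-disc protein Tcap at 79.6 against 279 (0.286, 0.108 to 0.640). Without the 3 CON members with the lowest sums of the rule genes, these ratios were 8.21, 5.26, 4.87, 3.71 and 2.48 for Ccnd1, Rasl11a, Ndufa4l2, Kitl and Slc8a1 and 0.0955, 0.181, 0.239 and 0.223 for Cpe, Ogn, Ltbp1 and Tcap.

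Ntf3 UMIs in CON VSMC lay mostly where Rgs5 was seen. Ntf3, neurotrophin 3, had 20 UMIs in 10 of 22 barcodes with Rgs5 and 7 in 7 of 27 without (ratio of CPM 4.12, 1.67 to 11.5, or 3.21, 1.3 to 8.99, without the same 3 members). All 5 Bdnf UMIs of VSMC were in 3 barcodes with Rgs5, too few for a reading.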
